A study of Mus musculus with 24 samples.

Results

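The skeletal muscle myosin heavy chain genes were followed in RNA-seq of mouse gastrocnemius, a calf muscle made mostly of fast fibers. The family was taken by gene symbol as 8 genes, Myh1, Myh2, Myh4, Myh7, Myh3, Myh8, Myh6 and Myh7b, out of 55385 genes in the count files, and all 8 were matched to an Ensembl identifier. Their reads were described as levels and as shares of the family total in 24 libraries, 1 per mouse, in 6 groups of 4. The mice were C57BL/6J females. In 3 groups an adeno-associated virus encoding green fluorescent protein was given as vector control: young GFP mice were 3–6 months of age, old GFP mice 21–24 months and those of the oldest-old GFP group 27–29 months. At the ages of the latter groups, old AAV-Kl mice and mice of the oldest-old AAV-Kl group carried the same kind of vector encoding Klotho, a circulating anti-aging protein of the kidney. Both vectors used the liver promoter LP-1, so Klotho was made in the liver and not in the muscle. They were given once into the tail vein at 300000000 vector genomes per mouse, and tissue was taken 14 days later. The sixth group, young Sham, is known here only from its labels of young age and Sham treatment and is not described in the methods of the study.

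Myosin II hexamers form the thick filaments of the sarcomere, and the heavy chain carries the motor domain that hydrolyzes ATP and pulls on actin. The heavy chain isoform sets the shortening velocity of a fiber and gives the fiber type its name. In adult mouse limb muscle, Myh4 encodes the chain of glycolytic type IIB fibers, Myh1 that of type IIX, Myh2 that of the more oxidative type IIA and Myh7 that of slow type I fibers. Myh3 and Myh8 encode the embryonic and perinatal chains, which are used in development and reappear in regenerating or denervated fibers. Myh6 encodes the alpha chain of the heart, and Myh7b is an ancient slow-type gene that hosts a microRNA.

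In GRCm38 the fast and developmental genes lie head to tail on the plus strand of chromosome 11, within 230335 bases and in the order Myh3, Myh2, Myh1, Myh4 and Myh8. Myh3 (ENSMUSG00000020908.14) occupies chr11:67078300-67102291, Myh2 (ENSMUSG00000033196.17) chr11:67171027-67197517 and Myh1 (ENSMUSG00000056328.14) chr11:67200052-67224575. Myh4 (ENSMUSG00000057003.12) follows at chr11:67238029-67260446 and Myh8 (ENSMUSG00000055775.16) at chr11:67277124-67308634. Only 2534 bases separate Myh2 from Myh1, and 13453 separate Myh1 from Myh4. Myh7 (ENSMUSG00000053093.16, chr14:54970684-54994626) and Myh6 (ENSMUSG00000040752.16, chr14:54941921-54966927) are neighbors on the minus strand of chromosome 14. Myh7b (ENSMUSG00000074652.3) stands alone on the plus strand at chr2:155611212-155634307.

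The 3 adult fast genes share sequence upstream of their starts. In the 250 bases before the RefSeq start (GRCm38.p6, plus strand), a single run of at least 10 bases was identical in all 3, and it is set in capitals. The stretches lie at chr11:67237562-67237811 for Myh4, chr11:67199852-67200101 for Myh1 and chr11:67170777-67171026 for Myh2. They are shown because these neighboring genes moved differently with age.
Myh4: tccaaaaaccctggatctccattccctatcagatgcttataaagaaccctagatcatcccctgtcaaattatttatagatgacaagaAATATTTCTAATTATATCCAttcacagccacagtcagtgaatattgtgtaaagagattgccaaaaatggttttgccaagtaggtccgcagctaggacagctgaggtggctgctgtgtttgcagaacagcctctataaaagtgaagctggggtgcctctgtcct
Myh1: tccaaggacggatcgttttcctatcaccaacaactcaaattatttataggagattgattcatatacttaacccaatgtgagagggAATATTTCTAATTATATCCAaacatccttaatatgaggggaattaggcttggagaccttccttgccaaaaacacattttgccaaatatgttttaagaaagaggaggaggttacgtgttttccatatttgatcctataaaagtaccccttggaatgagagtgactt
Myh2: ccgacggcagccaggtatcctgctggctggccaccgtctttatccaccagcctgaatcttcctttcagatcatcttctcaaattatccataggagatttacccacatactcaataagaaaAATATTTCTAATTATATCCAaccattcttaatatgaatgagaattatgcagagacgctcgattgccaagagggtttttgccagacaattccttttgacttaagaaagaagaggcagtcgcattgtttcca
The shared run, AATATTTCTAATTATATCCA, was searched on both strands in 32851 RefSeq promoters of the same length and occurred in 3 of them (0.00913%), those of Myh4, Myh1 and Myh2. The run was taken from these 3 promoters, so finding it in them was fixed in advance. A string of 20 bases is rare by its length alone. The run begins 163 bases before the start of Myh4, 165 before that of Myh1 and 130 before that of Myh2. The TATA box letters TATAAA, much shorter than the run, occurred in 12.4% of the promoters and in those of 4 members, Myh1, Myh4, Myh3 and Myh8. The E-box letters CANNTG occurred in 66.2% of them and in those of 6 members, not in those of Myh1 and Myh2. A match says only that the letters are there.

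The coding sequences are also alike, which bears on how reads were assigned. Over the aligned coding bases Myh1 was 90.9% identical to Myh2 and 90.1% identical to Myh4, while Myh4 was 77.4% identical to Myh7 and Myh7 was 91.7% identical to Myh6. The longest identical run was 268 bases between Myh1 and Myh2, 161 between Myh1 and Myh4 and 245 between Myh7 and Myh6. Of all 100-base stretches of the coding sequence, 10.1% in Myh1, 9.57% in Myh2, 3.99% in Myh4, 12.04% in Myh7, 12.02% in Myh6 and 1.19% in Myh3 also occurred in a transcript of another heavy chain gene. For Myh7b this share was 0%. With 50-base stretches it ranged from 0% in Myh7b to 28.1% in Myh2, with 19.6% in Myh4 and 22.7% in Myh8. A read inside such a stretch maps to more than 1 place and was not counted, so the counts rest on the parts that differ, and slight leakage between near-identical genes cannot be told apart from a low level. Across most of their length the isoforms differ enough to be separated, as in the 60 coding bases in which Myh1 and Myh2 differ most from Myh4. Capitals mark the bases that differ from Myh4 in the sense strand (GENCODE vM21 coding positions 3842 to 3901 of Myh4, 3851 to 3910 of Myh1 and Myh2 and 3830 to 3889 of Myh7).
Myh4 coding: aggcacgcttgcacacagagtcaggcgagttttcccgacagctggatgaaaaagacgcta
Myh1 coding: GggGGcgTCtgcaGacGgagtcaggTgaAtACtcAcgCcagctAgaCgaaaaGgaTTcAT
Myh2 coding: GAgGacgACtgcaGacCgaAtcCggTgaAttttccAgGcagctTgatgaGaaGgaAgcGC
Myh7 coding: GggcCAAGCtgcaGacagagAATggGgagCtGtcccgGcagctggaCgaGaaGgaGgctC
Myh1 differs from Myh4 at 20 of these bases, Myh2 at 19 and Myh7 at 19.

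Each library held between 36415886 and 59733985 reads counted on genes, 74.7% to 77.0% of all reads, and 9.78% to 12.2% of reads mapped to more than 1 place. Defining genes of muscle fibers were abundant in every library, with a summed level of 89083 to 123480 CPM (counts scaled to the library total by TMM factors) over 8 markers including Ckm and Acta1. Genes of heart muscle summed to between 7.26 and 13.4 CPM over 8 markers, nearly all of it Myl4 (6.63 to 12.99 CPM), and in young GFP mice Myl7, Nppa, Nppb and Nkx2-5 had no read. Some libraries stood apart by RNA of other tissues. Young GFP mice 1 and 3 held 127 and 403 CPM over 10 keratinocyte genes, against 2.77 and 2.37 CPM in the other young GFP mice. Old GFP mice 1 and 4 held 1063 and 152 CPM over 10 liver genes, against 38.4 and 39.9 CPM in mice 2 and 3 of that group. Other libraries held such RNA too, among them young Sham mouse 4 (151 CPM of keratinocyte genes) and old AAV-Kl mouse 4 (197 CPM of liver genes). Oldest-old GFP mouse 4 differed most from its group, with a chi-square per degree of freedom of 136 to 153 in its 3 pairs against 14.8 to 40.9 in the other pairs. It held 23037 CPM of the fiber actin Acta1, against 35572 to 37405 CPM in the other mice of the group, and 545 CPM of the ubiquitin ligase Trim63, against 163 to 217 CPM. The part of these libraries in the results was not tested beyond the values given without them. In bulk muscle, fewer fibers of a type and less RNA per fiber cannot be told apart.

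Myh4 dominated the family and was the gene with the most reads of all, 1995802 to 3210635 per library. The 8 genes together took 5.24% to 6.83% of the reads counted on genes. Per kilobase of annotated exon, which allows genes to be compared, Myh4 had a median level over the 24 libraries of 8975 CPM per kb. Myh1 followed with 539, Myh2 with 320 and Myh7 with 49.9 CPM per kb, and this order of the first 4 held in all 24 libraries. The remaining members were close to the floor of the family, with medians of 1.83 for Myh3, 0.9996 for Myh7b, 0.477 for Myh8 and 0.354 CPM per kb for Myh6. Myh3 held the fifth place in 17 libraries, so that its order with Myh7b was not fixed. Rare as they were, these transcripts were counted with 130 to 1507 reads for Myh3, 194 to 1276 for Myh7b, 180 to 391 for Myh8 and 69 to 442 for Myh6.

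**Figure D1:**
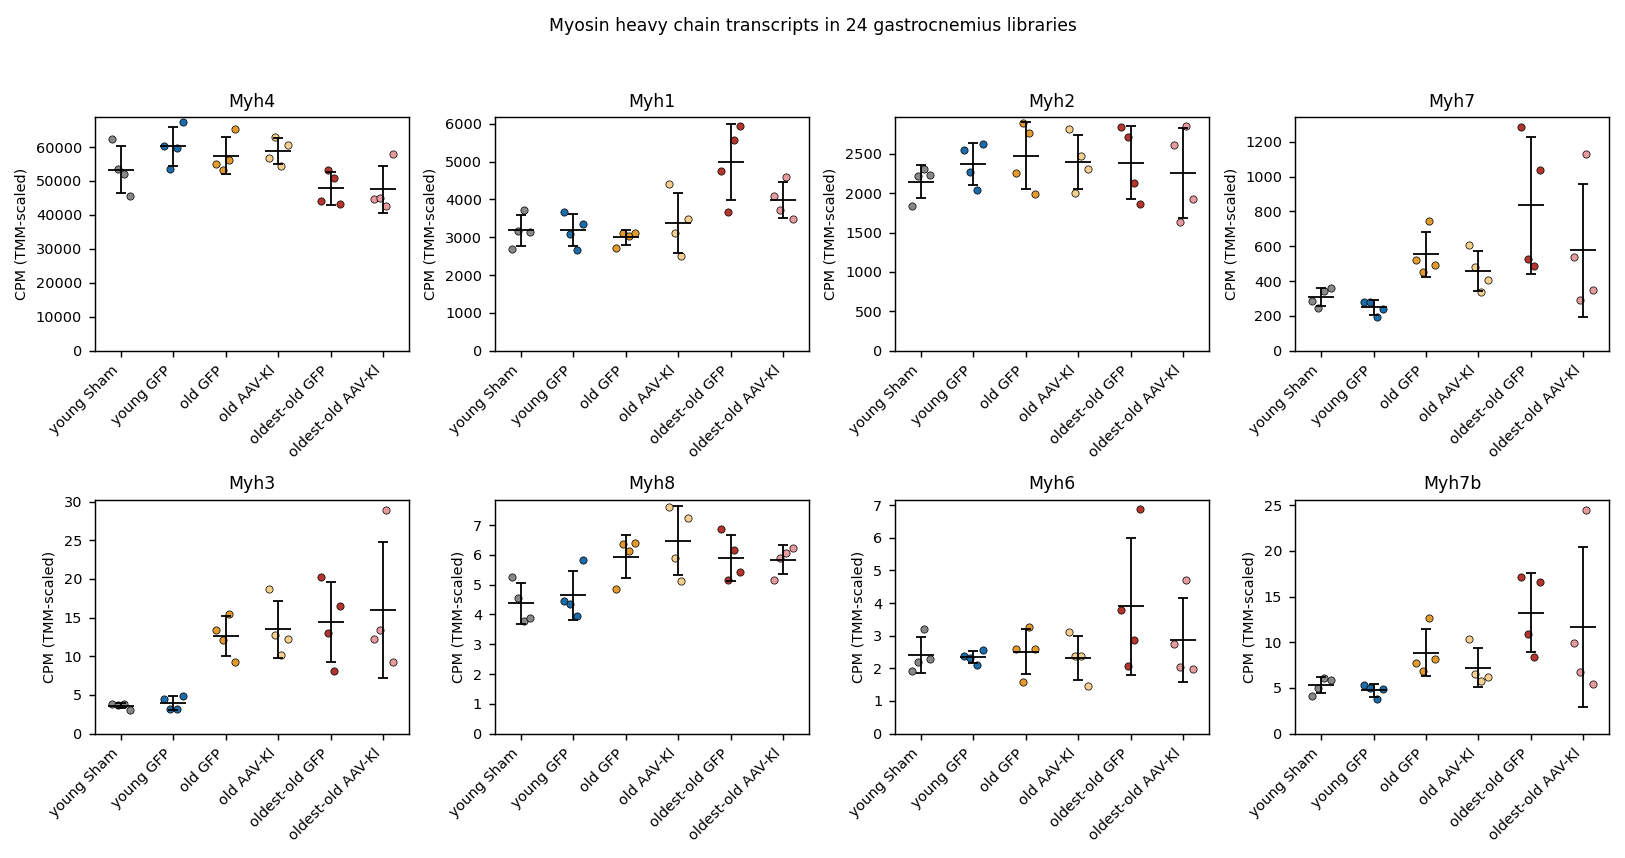
Level of each heavy chain gene in every library, as TMM-scaled CPM on axes from 0, with points for the 4 mice of each group and bars for the mean ± SD. Myh4 and Myh1 of oldest-old GFP mice lie apart from young GFP mice in opposite directions, and Myh7, Myh3 and Myh7b of old and oldest-old GFP mice lie above all young mice.

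Of the 8 members, 5 passed the test in oldest-old GFP mice compared with young GFP mice, 4 of them higher and 1 lower. The members' median log2 fold change was 0.69, beside 0.03 over all genes. Across all 17465 genes tested, 13% were called in this comparison, 7.64% higher and 5.31% lower. In 5 members the 4 oldest-old libraries did not overlap the 4 young libraries, as in 18.7% of all genes. Of the same 8 members, 1 was called in old GFP mice relative to young GFP mice, Myh3, against 3.50% of all genes (2.43% higher and 1.08% lower). In 3 members the old and young GFP libraries did not overlap, against 15.9% of genes. Tests across genes were edgeR quasi-likelihood tests with Benjamini-Hochberg adjustment over all genes, and the 2 comparisons share the young GFP mice. These p-values measure the spread between mice of 1 library each.

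The type IIB gene Myh4 was lower and the type IIX gene Myh1 higher in oldest-old GFP mice. Myh4 measured 60182, 53515, 59832 and 67384 CPM in young GFP mice 1 to 4 and 55073, 53193, 56255 and 65420 CPM in old GFP mice. In oldest-old GFP mice it measured 44017, 53202, 50791 and 43270 CPM, so that each of these lay below each young GFP mouse, though mouse 2 by little. Myh4 fell by 0.33 on the log2 scale (SE 0.11, adjusted p = 0.0497) from young to oldest-old GFP mice, and its change to old GFP mice was -0.07 (SE 0.11, adjusted p = 0.802). The call on Myh4 is the least secure of the family. It was lost without any 1 of 5 of the 8 libraries, oldest-old GFP mouse 1 or 4 or young GFP mouse 1, 3 or 4 (adjusted p = 0.0641 to 0.130). Against young Sham mice, which measured 62460, 53398, 51981 and 45563 CPM, the difference was -0.16 (adjusted p = 0.356; over all alternatives 0.0101 to 0.356), and without the low-count filter adjusted p was 0.148.

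Myh1 measured 3671, 3088, 2665 and 3353 CPM in young GFP, and 2713, 3117, 3045 and 3109 CPM in old GFP mice. In oldest-old GFP mice it measured 4740, 3673, 5571 and 5946 CPM. All 4 oldest-old libraries lay above all young and old GFP libraries, mouse 2 by a margin of only a few CPM. Young Sham mice measured 2696, 3174, 3720 and 3127 CPM, and young Sham mouse 3 lay above oldest-old GFP mouse 2. Myh1 rose by 0.64 on the log2 scale (SE 0.16, adjusted p = 0.0149) from young to oldest-old GFP mice. With young Sham mice in place of young GFP mice the change was 0.65 (adjusted p = 0.0118). The call was lost without oldest-old GFP mouse 4 (adjusted p = 0.0578) and without young GFP mouse 3 (adjusted p = 0.0569), within a range over all alternatives of 0.00346 to 0.104.

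From old to oldest-old GFP mice, Myh1 had the 12th smallest p-value of the 17465 genes (log2 fold change 0.73, SE 0.16, unadjusted p = 0.000241), but its adjusted p was 0.246. Myh4 changed by -0.27 (SE 0.11, adjusted p = 0.424). In this comparison 0 of the 8 members and 0% of all genes were called by edgeR, while 2 members and 1860 genes had an unadjusted p under 0.05. DESeq2 called 1 member, Myh1 (adjusted p = 0.00838), among 97 genes. Myh1 was the 1 member whose old and oldest-old libraries did not overlap, as in 5.70% of genes.

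The type IIA gene Myh2 was level across the groups. Its mean was 2371 ± 270.0 CPM in young GFP, 2475 ± 424 in old GFP and 2389 ± 465 CPM in oldest-old GFP mice (SD, n = 4 each). The changes from young GFP mice were 0.06 (SE 0.18, adjusted p = 0.906) to old and 0.01 (SE 0.18, adjusted p = 0.981) to oldest-old GFP mice. Single mice ranged from 1629 to 2893 CPM, and this spread within groups was wider than any difference between group means.

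As shares of the family total, computed per kilobase of exon in each library so that library scaling plays no part, the change was a move from Myh4 toward Myh1. Myh4 made up 91.2%, 91.4%, 93.2% and 92.4% of the total in young GFP mice, and 91.9%, 90.3%, 90.7% and 92.9% in old GFP mice. In oldest-old GFP mice its share was 84.9%, 89.6%, 87.2% and 84.4%, below every mouse of the other GFP groups. The mean share fell from 92.0% ± 0.924 in young to 86.6% ± 2.38 in oldest-old GFP mice (SD, n = 4 each), a difference of -5.47 percentage points (two-sided exact permutation test, p = 0.0286). Relative to old GFP mice the difference was -4.90 points (p = 0.0286 by the same exact permutation test), and old GFP mice differed from the young by -0.57 points (p = 0.486 by the exact permutation test). With 4 mice against 4, 0.0286 is the smallest p that this test allows. It is not adjusted for the 72 tests made on 8 shares and 4 ratios in 6 comparisons.

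The share of Myh1 was 5.27%, 4.99%, 3.93% and 4.35% in young GFP, and 4.29%, 5.01%, 4.65% and 4.18% in old GFP mice. It was 8.66%, 5.86%, 9.06% and 10.99% in oldest-old GFP mice, all above the other GFP mice. The oldest-old GFP mean exceeded that of young GFP mice by 4.01 points and that of old GFP mice by 4.11 points (exact permutation tests, p = 0.0286 for each). Against young Sham mice, in which it reached 6.11%, the groups overlapped (3.41 points, exact permutation test, p = 0.0571). The share of Myh4 differed from young Sham mice by -4.67 points (exact permutation test, p = 0.0286). Myh2 held 3.06% ± 0.274 of the total in the young, 3.36% ± 0.765 in the old and 3.66% ± 0.739 in oldest-old GFP mice (SD, n = 4 each), and these groups overlapped. Without young GFP mice 1 and 3, the Myh4 share of oldest-old GFP mice differed from the young by -5.32 points and the Myh1 share by 3.97 points.

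**Figure D2:**
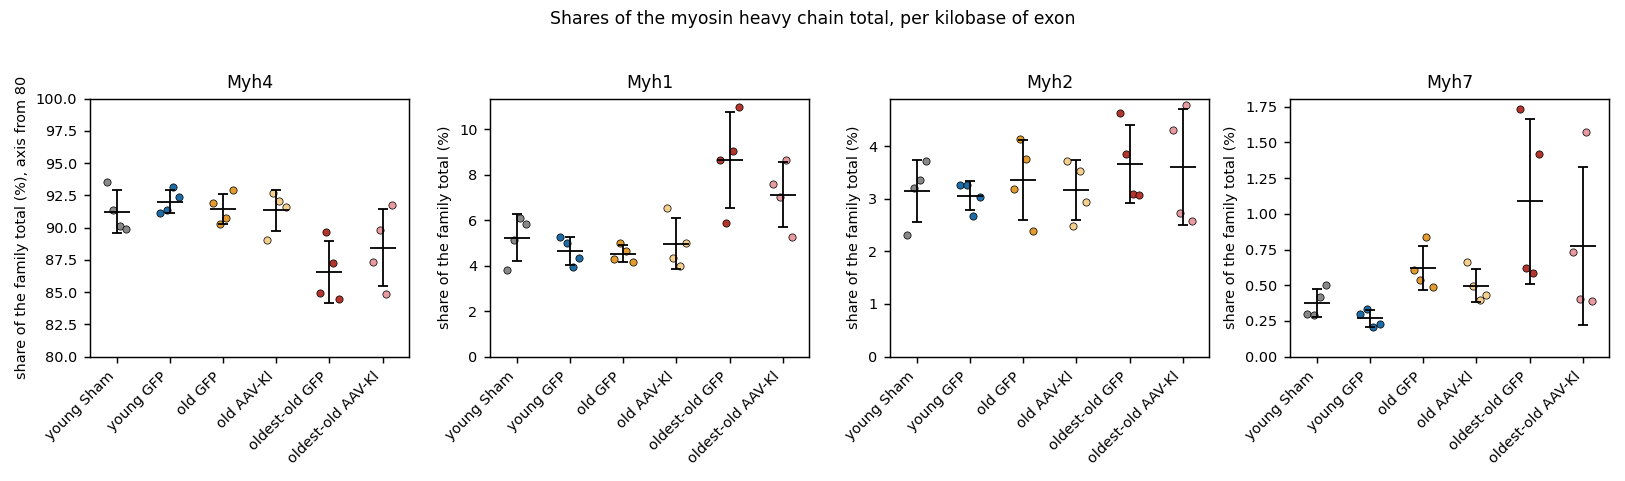
Share of the 8-gene total held by Myh4, Myh1, Myh2 and Myh7 in each library, in percent of reads per kilobase of exon, with points for mice and bars for the mean ± SD; the Myh4 axis begins at 80% and the others at 0. Oldest-old GFP mice have the lowest Myh4 shares among the GFP groups (84.4% to 89.6%) and the highest Myh1 shares (5.86% to 10.99%).

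The slow gene Myh7 was higher in both older groups, with the widest spread among the oldest-old. It measured 281, 280.1, 192 and 241 CPM in young GFP mice and 522, 453, 745 and 494 CPM in old GFP mice. In oldest-old GFP mice it measured 1285, 527, 486 and 1039 CPM, with mice 1 and 4 far above mice 2 and 3. All 8 older GFP libraries lay above all 8 young libraries, GFP and Sham, the highest of which was a Sham mouse at 362 CPM. The change from young GFP mice was 1.15 on the log2 scale to old (SE 0.37, adjusted p = 0.0946) and 1.75 to oldest-old GFP mice (SE 0.38, adjusted p = 0.00697). In a fit of the 2 compared groups alone, the first of these was called (adjusted p = 0.00682; over all alternatives 0.00682 to 0.372). The call in oldest-old GFP mice held under 16 of 17 alternatives (adjusted p = 0.000764 to 0.0786) and was lost without young GFP mice 1 and 3. Even so, Myh7 remained a small part of the family, at 0.268% ± 0.0579 in the young, 0.618% ± 0.155 in the old and 1.09% ± 0.576 in oldest-old GFP mice (SD, n = 4 each). The Myh7 share of old GFP mice overlapped that of young Sham mice (0.241 points higher, exact permutation test, p = 0.0571).

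Myh7b followed Myh7. It measured 5.31, 4.97, 3.76 and 4.85 CPM in young GFP, 7.75, 6.84, 12.7 and 8.21 CPM in old GFP and 17.1, 10.9, 8.37 and 16.6 CPM in oldest-old GFP mice. The same oldest-old mice, 1 and 4, were highest for both genes, and old GFP mouse 3 was highest of its group for both. Myh7b rose by 1.49 on the log2 scale (SE 0.38, adjusted p = 0.0166) in oldest-old GFP mice, and its change to old GFP mice was 0.90 (SE 0.38, adjusted p = 0.211). Without young GFP mouse 3 the call to oldest-old GFP mice was lost (adjusted p = 0.0503; over all alternatives 0.00153 to 0.130). Across the 24 libraries, the log2 CPM of Myh7 and Myh7b had a Pearson r of 0.96, and of 0.93 after the group means were removed, given as a description of libraries that share their groups.

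Introns of 3 members host microRNAs of one seed family, known from the heart as part of a circuit that maintains slow myosin. Their mature sequences are shown with the seed, bases 2 to 8, in capitals (RefSeq, GRCm38.p6).
miR-208a-3p, in Myh6: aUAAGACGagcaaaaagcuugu
miR-208b-3p, in Myh7: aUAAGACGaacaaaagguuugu
miR-499-5p, in Myh7b: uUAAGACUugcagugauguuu
The seeds of miR-208a-3p and miR-208b-3p are identical, and that of miR-499-5p differs in its last base. The libraries did not measure the mature forms, and the annotated hairpins took at most 3 reads in any library.

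Most genes that work beside Myh7 in slow fibers were also higher. Of 9 slow partners, among them the slow troponins, the slow light chains and the calcium pump Atp2a2, 6 rose, 0 fell and 3 did not pass in oldest-old against young GFP mice. The median log2 fold change of the list was 1.30, beside 0.03 over all genes tested, of which 7.64% were called higher and 5.31% lower. Tpm3, a slow tropomyosin, rose from 147 ± 19.4 to 454 ± 185 CPM (SD, n = 4 each; log2 fold change 1.62, adjusted p = 0.00488). Tnni1, the inhibitory subunit of slow troponin, rose by 1.63 (adjusted p = 0.0074), Tnnc1 by 1.45 (adjusted p = 0.0081) and Tnnt1 by 1.39 (adjusted p = 0.00996) on the log2 scale. In old GFP mice the median against the young was 0.76, and 0 of the 9 were called by edgeR, with 6 at an unadjusted p under 0.05. In oldest-old GFP mice 4 of the 9 were called without oldest-old GFP mouse 4 and 6 with young Sham in place of young GFP mice. Without young GFP mice 1 and 3, which leaves 2 young mice, 0 were called by edgeR, with 6 at an unadjusted p under 0.05 and a median of 1.26.

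Of 10 fast partners, 0 rose, 2 fell and 8 did not pass in oldest-old against young GFP mice, with a median of -0.33. All genes tested gave 7.64% called higher and 5.31% lower. In a fit of the 2 compared groups alone, edgeR called 0 of the 10, with 5 at an unadjusted p under 0.05. One of the 10, Tnnc2, was close to uncounted at 0.0573 to 0.391 CPM. Casq1, the calcium buffer of the fast sarcoplasmic reticulum, fell by 0.73 on the log2 scale (SE 0.20, adjusted p = 0.0244), from 2490 ± 95.1 to 1500.2 ± 520.3 CPM (SD, n = 4 each). Pvalb, the parvalbumin that speeds relaxation, fell by 0.65 (SE 0.17, adjusted p = 0.0163), from 8496 ± 336 to 5404 ± 1417 CPM. Oldest-old GFP mouse 4 had the lowest value of both, 743 and 3462 CPM, and within the group also the highest Myh1 and the lowest Myh4. Without it both genes were still called (Casq1 -0.53, adjusted p = 0.0185; Pvalb -0.51, adjusted p = 0.0295), and without young GFP mice 1 and 3 edgeR called 0 of the 10, with 5 at an unadjusted p under 0.05 and a median of -0.37.

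**Figure D3:**
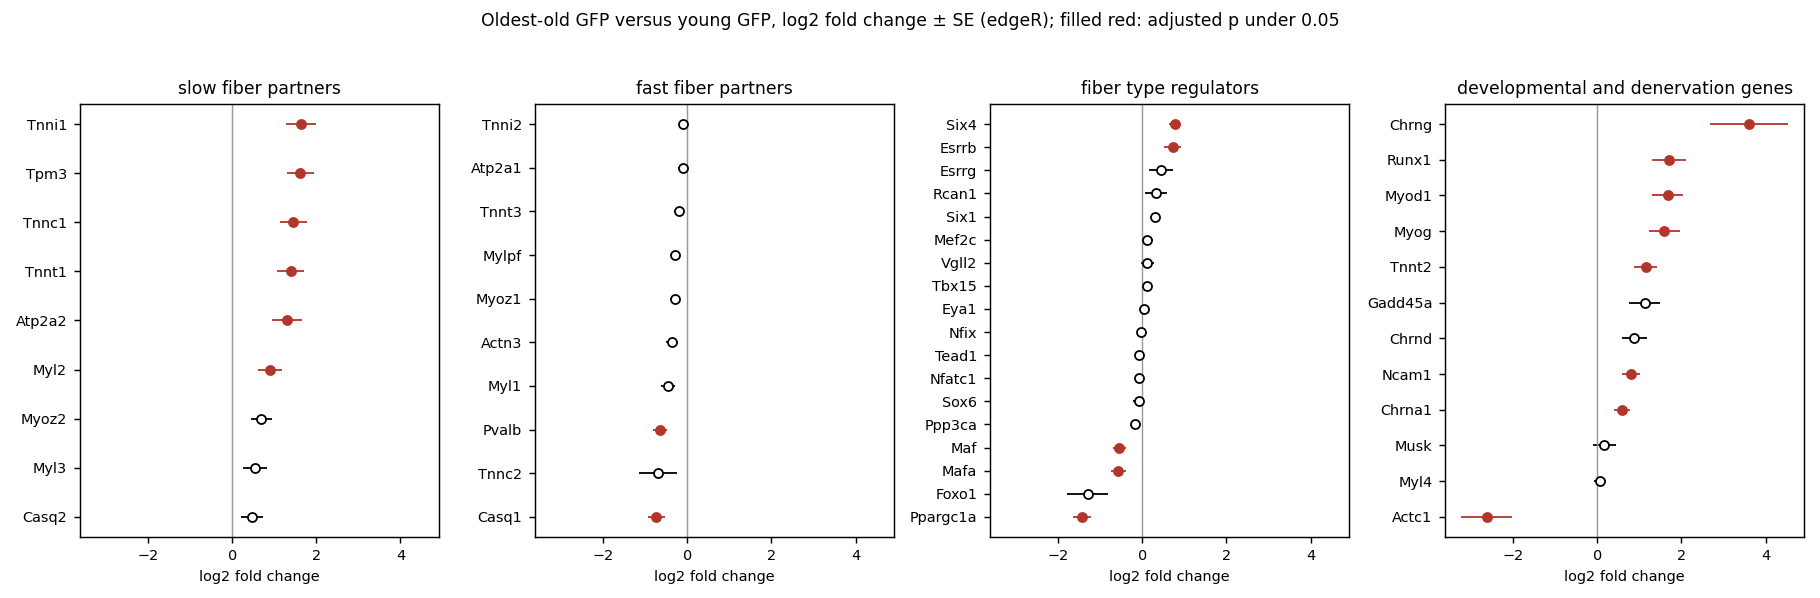
Log2 fold change ± SE from young GFP to oldest-old GFP mice for genes of 4 lists, with filled red points for adjusted p under 0.05 in edgeR and open points otherwise. All 9 slow partners lie to the right of 0 and all 10 fast partners, Tnnc2 at under 1 CPM among them, to the left, while regulators and developmental genes fall on both sides.

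The embryonic gene Myh3 had the clearest difference between young and older muscle of the family. It measured 4.47, 3.13, 3.22 and 4.88 CPM in young GFP mice and 3.78, 3.74, 3.85 and 3.07 CPM in young Sham mice. In old GFP mice it measured 13.5, 12.1, 15.5 and 9.29 CPM, and in oldest-old GFP mice 20.2, 12.95, 8.09 and 16.5 CPM. Every older library, including the 8 AAV-Kl libraries, lay above all 8 young libraries. Myh3 rose by 1.68 on the log2 scale to old (SE 0.33, adjusted p = 0.00921) and by 1.88 to oldest-old GFP mice (SE 0.33, adjusted p = 0.00188). It was called in oldest-old GFP mice under all 17 alternatives, with adjusted p from 8.35e-07 to 0.0397, and in old GFP mice under 17 of 18. The exception was the fit without young GFP mice 1 and 3 (adjusted p = 0.123). With young Sham mice in place of young GFP mice the adjusted p was 0.00198 for old GFP and 0.000461 for oldest-old GFP mice. Even in oldest-old GFP mice it made up only 0.0266% ± 0.0110 of the family (SD, n = 4).

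The perinatal gene Myh8 moved less. Its mean was 4.64 ± 0.815 CPM in young GFP, 5.94 ± 0.730 in old GFP and 5.90 ± 0.773 CPM in oldest-old GFP mice (SD, n = 4 each). Its log2 changes were 0.36 (SE 0.14, adjusted p = 0.189) and 0.35 (SE 0.14, adjusted p = 0.118), and the groups overlapped. As a share of the family, Myh8 was 0.00361% in young GFP, 0.00484% in old GFP and 0.00551% in oldest-old GFP mice, and neither older group overlapped the young (exact permutation tests, p = 0.0286 for each). The cardiac gene Myh6 had means of 2.34 ± 0.188, 2.52 ± 0.693 and 3.91 ± 2.10 CPM in the same groups, where the last rests on oldest-old GFP mouse 4 at 6.88 CPM. Its change from young to oldest-old GFP mice was 0.74 (SE 0.34, adjusted p = 0.157), and its highest libraries were among those highest in Myh7, with which it shares identical stretches.

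Among 13 genes of developing or denervated fibers, which include myogenic factors and subunits of the acetylcholine receptor, 8 rose, 1 fell and 4 did not pass in oldest-old against young GFP mice. The median log2 fold change was 1.12. Among all genes tested 7.64% were called higher and 5.31% lower. Myod1 rose by 1.67 (adjusted p = 0.00787) and Myog by 1.59 (adjusted p = 0.0107) on the log2 scale, both of them transcription factors of myogenesis. The 1 gene that fell was Actc1, the cardiac actin of immature fibers, by 2.62 (adjusted p = 0.0099). Without young GFP mice 1 and 3 only Myod1 of this list was called (1.98, adjusted p = 0.0398), and 5 rose and 1 fell without oldest-old GFP mouse 4. In old GFP mice only Myod1 of this list was called (log2 fold change 1.36, adjusted p = 0.0491). Myod1 had a higher mean in young Sham mice (31.4 ± 4.07 CPM) than in young GFP mice (11.4 ± 3.50 CPM). The Sham level was close to the 29.2 ± 10.4 CPM of old GFP mice (SD, n = 4 each). Between young GFP and young Sham mice 0 of the 13 genes were called by edgeR, so this difference in Myod1 did not pass. Against young Sham mice 9 of the list rose and 1 fell in oldest-old GFP mice, and neither Myod1 nor Myog was called.

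Of 19 regulators known to act on fiber type, 2 rose, 4 fell and 13 did not pass in oldest-old against young GFP mice, with a median of -0.03. Among all genes tested 7.64% were called higher and 5.31% lower. Maf, a transcription factor known to activate Myh4, fell by 0.54 on the log2 scale (SE 0.16, adjusted p = 0.0284), from 394 ± 26.6 to 270.2 ± 41.8 CPM (SD, n = 4 each). Mafa, a related factor outside the limit of 4 named genes per list and added after its values were seen, fell by 0.57 (SE 0.18, adjusted p = 0.0426), from 109 ± 9.28 to 73.1 ± 12.9 CPM. Ppargc1a, a coactivator of oxidative fibers, fell by 1.44 (SE 0.21, adjusted p = 0.000555). Young GFP mice held 111 ± 42.3 CPM of it, more than young Sham mice (48.4 ± 9.84 CPM, adjusted p = 0.0127), whereas old and oldest-old GFP mice held 45.3 ± 9.67 and 41.0 ± 1.60 CPM. Six4, a homeodomain activator of fast genes, rose by 0.78 (SE 0.15, adjusted p = 0.00383). In old against young GFP mice, 0 of the 19 rose and 2 fell, among them Ppargc1a (by 1.30, adjusted p = 0.0034). All genes tested gave 2.43% called higher and 1.08% lower in that comparison. In oldest-old GFP mice 1 rose and 2 fell without young GFP mice 1 and 3, Ppargc1a and Six4 among them, and 1 rose and 3 fell without oldest-old GFP mouse 4, again with Ppargc1a and Six4. The fit without young GFP mice 1 and 3 called 623 of all genes, in place of 2263. Against young Sham mice 1 rose and 1 fell, the latter Mafa (-0.69, adjusted p = 0.0184), and Ppargc1a, Maf and Six4 were not called.

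Of 11 thick filament partners and chaperones, 2 rose, 0 fell and 9 did not pass in oldest-old against young GFP mice, with a median of -0.05, a share called near that of all genes. Myom3, a protein of the M-band of slow and IIA fibers, rose by 1.22 (SE 0.28, adjusted p = 0.01) and Mybpc1, the slow myosin binding protein C, by 0.56 (SE 0.15, adjusted p = 0.0207). Of 6 other heavy chain genes, 5 were tested, beside the same 7.64% of all genes called higher. The nonmuscle genes Myh14 (by 0.53, adjusted p = 0.0222) and Myh10 (by 0.72, adjusted p = 0.0443) rose, and 3 did not pass. Without young GFP mice 1 and 3, edgeR called 0 genes of either list (4 and 2 at an unadjusted p under 0.05), and without oldest-old GFP mouse 4 it called Myom3 alone. The extraocular gene Myh13 stayed between 2.33 and 5.37 CPM in all libraries. In old against young GFP mice 0 genes of either list were called by edgeR, with 1 and 3 at an unadjusted p under 0.05.

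Ratios within a library do not depend on its scaling. The ratio of Myh1 to Myh4 per kilobase was 0.05004 in young GFP, 0.0494 in old GFP and 0.0974 in oldest-old GFP mice (geometric means). On the log2 scale it was -4.11, -4.19, -4.57 and -4.41 in young GFP, -4.42, -4.17, -4.29 and -4.47 in old GFP and -3.29, -3.93, -3.27 and -2.94 in oldest-old GFP mice. Oldest-old GFP mice differed from young GFP mice by 0.96 and from old GFP mice by 0.98 (exact permutation tests, p = 0.0286 for each). Young Sham mice ranged from -4.61 to -3.88 and overlapped oldest-old GFP mouse 2. The ratio of Myh7 to Myh4 exceeded that of young GFP mice by 1.21 in old GFP and by 1.97 in oldest-old GFP mice (exact permutation tests, p = 0.0286 for each). With young Sham mice in their place, the difference in old GFP mice was 0.71 and the groups overlapped (exact permutation test, p = 0.0571). The ratios of Myh2 to Myh4 and of Myh2 to Myh1 gave no p under 0.05 in the 6 comparisons, with the smallest at 0.0571 by the exact permutation test for Myh2 to Myh1, which was different by -0.77 in oldest-old GFP than in old GFP mice.

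An antisense gene lies between Myh1 and Myh4. Myhas (ENSMUSG00000085348.1, chr11:67211256-67237573, minus strand) begins 239 bases before the RefSeq start of Myh4 and runs against the end of Myh1, covering 515 of its exon bases (8.11%). The 250 bases of Myh4 printed above include this interval. Genes that overlap members in the annotation were measured for this reason, and Myhas is described after its values were seen. Myhas measured 27.6, 27.8, 24.2 and 25.7 CPM in young GFP, 22.4, 17.1, 20.9 and 20.5 CPM in old GFP and 10.1, 18.9, 16.8 and 8.80 CPM in oldest-old GFP mice. It fell by 0.96 on the log2 scale (SE 0.24, adjusted p = 0.0157) from young to oldest-old GFP mice, and its change to old GFP mice was -0.38 (SE 0.24, adjusted p = 0.436). The lowest values were in oldest-old GFP mice 1 and 4, the mice with the lowest Myh4. The counts do not use strand, and reads on exon bases shared with Myh1 were assigned to neither gene, so Myhas was counted from its own bases. Any sense RNA on those bases, such as unspliced Myh1, cannot be told apart from Myhas. Of the other overlapping genes, the Myh2 antisense 9430073C21Rik did not pass (log2 fold change 0.26, SE 0.23, adjusted p = 0.496).

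**Figure D4:**
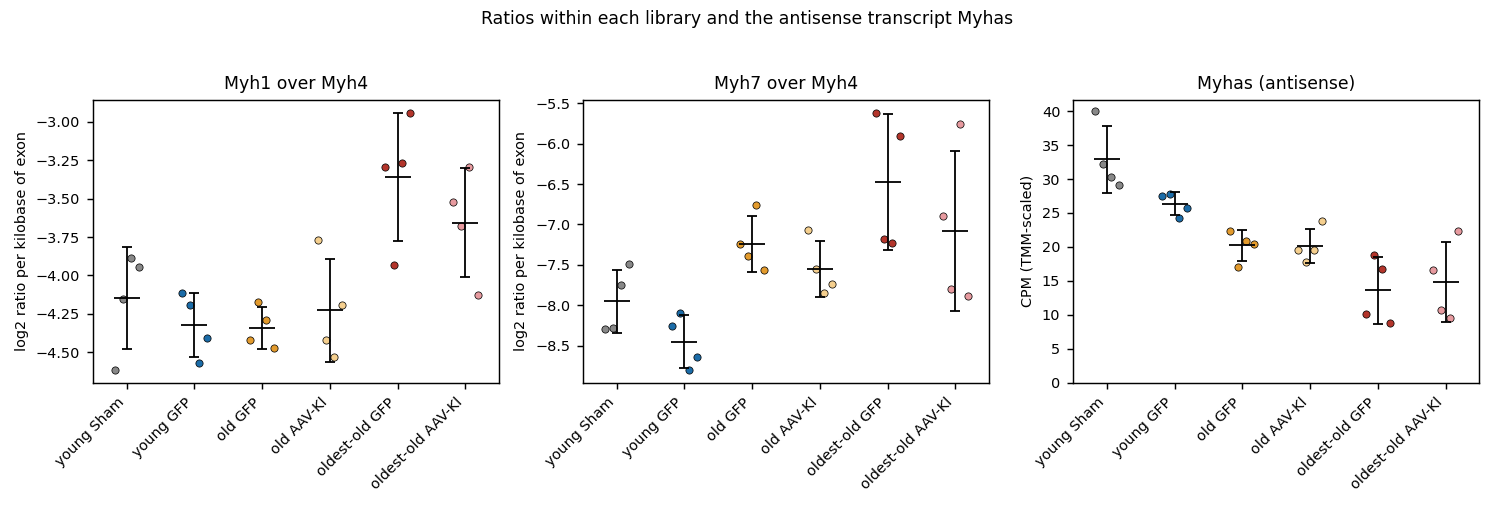
Log2 ratio of Myh1 to Myh4 and of Myh7 to Myh4 per kilobase of exon, and TMM-scaled CPM of the antisense gene Myhas, for the 4 mice of each group with the mean ± SD as bars. Oldest-old GFP mice lie at -3.93 to -2.94 for Myh1 over Myh4, above all young and old GFP mice, and at 8.80 to 18.9 CPM for Myhas, below all young mice.

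The Klotho vector was compared with GFP at each older age, to ask whether the isoforms differed 14 days after it was given. In old mice 0 of 8 members were called by edgeR or DESeq2, 0 had an unadjusted p under 0.05 and 0 did not overlap, against 0% of all genes called by edgeR (331 at an unadjusted p under 0.05, 0 by DESeq2) and 1.67% not overlapping. Myh4 measured 56841, 63066, 54476 and 60496 CPM in old AAV-Kl mice (log2 fold change 0.03, SE 0.11). Myh1 measured 4410, 3115, 2496 and 3492 CPM (0.17, SE 0.16), so that its spread was wider than in old GFP mice. Myh7 changed by -0.27 (SE 0.37) and Myh3 by 0.10 (SE 0.32), and adjusted p was 0.9997 for each of these.

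In oldest-old mice, too, 0 of 8 members were called by edgeR or DESeq2, 0 had an unadjusted p under 0.05 and 0 did not overlap, where 0.0115% of all genes were called and 2.66% did not overlap. Myh1 measured 4097, 3728, 4583 and 3490 CPM in oldest-old AAV-Kl mice and its log2 fold change against oldest-old GFP mice was -0.33 (SE 0.16, unadjusted p = 0.0562, adjusted p = 0.702). Myh4 measured 44606, 45104, 42606 and 57813 CPM (-0.01, SE 0.11, adjusted p = 0.990). Its share was 87.3%, 89.8%, 84.9% and 91.8%, 1.88 points from the oldest-old GFP mean (p = 0.286, exact permutation test). The Myh1 share was 7.59%, 7.03%, 8.65% and 5.24%, a difference of -1.51 points (exact permutation test, p = 0.257). Myh7 was spread widely, at 536, 291, 1130 and 351 CPM, with mouse 3 far above the others (-0.53, SE 0.37, adjusted p = 0.767). That mouse also had the highest Myh3 of all 24 libraries, 28.9 CPM, and the highest Myh7b, 24.5 CPM.

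The response to Klotho was then compared between the ages in the same fit. For Myh1 the response in oldest-old mice was 0.50 lower than in old mice on the log2 scale (SE 0.23, unadjusted p = 0.0403, adjusted p = 0.939). This was the 1 member with an unadjusted p under 0.05. By edgeR and by DESeq2, 0 members were called, and edgeR called 0% of all genes (895 at an unadjusted p under 0.05, 1 by DESeq2).

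**Figure D5:**
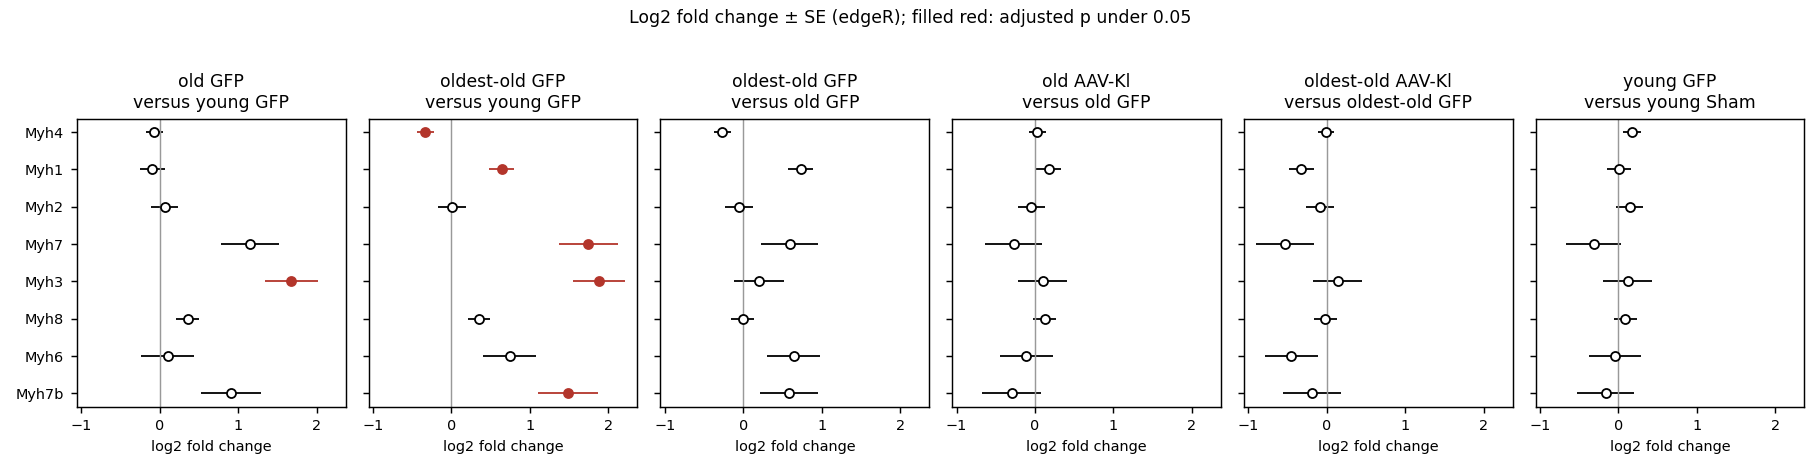
Log2 fold change ± SE of the 8 members in 6 comparisons, with filled red points for adjusted p under 0.05 in edgeR and open points otherwise. Called members appear only against young GFP mice, Myh3 in old GFP mice and Myh4, Myh1, Myh7, Myh3 and Myh7b in oldest-old GFP mice.

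Between young GFP and young Sham mice 0 of 8 members were called by edgeR or DESeq2 and 0 had an unadjusted p under 0.05, where 0.472% of 17803 genes were called. Myh4 was 53350 ± 6964 CPM in young Sham and 60228 ± 5669 CPM in young GFP mice (SD, n = 4 each; log2 fold change 0.17, SE 0.11, adjusted p = 0.496). Myh7 was 310 ± 53.3 and 249 ± 41.8 CPM (-0.32, SE 0.35, adjusted p = 0.695) and Myh3 3.61 ± 0.359 and 3.93 ± 0.879 CPM (0.12, SE 0.31, adjusted p = 0.883).

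The genes whose log2 CPM varied most like each member were listed by Pearson r over all 24 libraries, as a description in which the libraries share group and scaling. The 5 closest to Myh7 were Tnnc1 (0.99), Tnnt1 (0.98), Tnni1 (0.98), Tpm3 (0.97) and Xpo4 (0.97), with r of 0.92 to 0.98 after group means were removed. Those closest to Myh4 were Capza2 (0.92), Pygm (0.91), Hoxd8 (0.91), Tnnt3 (0.91) and Hoxc10 (0.90), among them muscle glycogen phosphorylase and the fast troponin T, with 0.84 to 0.92 after removal. Myh2 was closest to Ppip5k1 (0.86), Wfs1 (0.78), Atp1b1 (0.78), Cnksr2 (0.78) and Tmem8b (0.78), and these r were 0.79 to 0.89 within groups. The closest genes to Myh3 were Pde8a (0.95), Smpx (0.94), Arhgap44 (0.94), Dapk2 (0.94) and Ppfibp1 (0.94), and r dropped to between 0.68 and 0.77 once group means were removed. Myh1 had looser neighbors, Lnpep (0.81), Ush1g (0.79), Itga7 (0.79), Tnnt2 (0.79) and Glg1 (0.77), and Myh8 had Egf (0.84), Ankrd6 (0.83), Atg4a (0.83), Ldb3 (0.82) and Ttc17 (0.82). After group means were removed, these r were 0.59 to 0.79 for Myh1 and 0.56 to 0.79 for Myh8. Between members, Myh1 and Myh4 had an r of -0.57 (-0.26 within groups) and Myh1 and Myh2 an r of 0.11 (0.21 within groups).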

How the data were processed

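Gene counts of 24 libraries were used. Per the labels and the study's methods, the authors aligned reads to mm10 (GRCm38) with STAR, checked them with FastQC and used DESeq2 for their own comparisons. The deposited count files hold raw read counts per gene without normalization, in an unstranded column and 2 strand columns, and the first strand column held 49.8% to 50.4% of stranded reads. The unstranded counts were used. The annotation is not given in the sources used here. Of 55385 identifiers, 54487 matched GENCODE vM21 with their version and 657 without it, and 241 did not match. Replicate libraries of a group differed beyond counting error (chi-square per degree of freedom of 10.4 to 153), so all 24 were kept.

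Comparisons of the 5 GFP and AAV-Kl groups came from 1 edgeR 4.0.16 quasi-likelihood fit (R 4.3.3) of 20 libraries, with TMM factors and edgeR's low-count filter, which left 17465 genes. Young GFP and young Sham mice were compared in a fit of 24 libraries and 17803 genes. A call is a Benjamini-Hochberg adjusted p under 0.05 over all genes. The SE is the log2 fold change over the root of its F statistic. CPM are scaled by the TMM factors of 24 libraries. Log2 CPM used a prior count of 2. Shares and ratios used reads per kilobase of annotated exon and two-sided exact permutation tests over 70 arrangements. The edgeR step was tested on simulated counts. Coding sequences were aligned with MAFFT, and promoter and microRNA sequences are from RefSeq tables in which all 8 members and 3 microRNAs matched.

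Named genes were all members, up to 4 genes per list and comparison with the smallest p among those called, and the 5 genes of highest r to each of 6 members. The members and lists were chosen with earlier results of these data known. Alternatives were other size factors, no filter, DESeq2 1.42.0, a strand column, fewer or more libraries, a replicate block and other lengths. Replicate numbers were shared between groups, but libraries of the same number did not on average deviate together. The mean correlation of their deviations from the group mean was -0.03 to 0.01 in 5 of the 6 comparisons. It was -0.16 (-0.23 to -0.12) for oldest-old AAV-Kl against oldest-old GFP mice. Single pairs of young GFP and young Sham mice ranged from -0.53 to 0.20. Liver RNA in old GFP mice and skin RNA in young GFP mice were measured and their part in the results was not tested. Some genes of the lists enter the counts and medians but are not reported here by name.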

Additional observations from a re-analysis of the deposited data

Results flagged for a closer look

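In each group of 4 mice, a value was marked when its gap to the nearest mouse took more of the range of the group than Dixon's 95% critical value for 4 samples, which chance alone gives in about 1 in 20 groups. Of 96 groups examined (levels of 8 members, shares of 4 members and 4 ratios), 6 were marked, near that rate. In young Sham mice, Myh2 of mouse 1 was low at 1837 CPM and Myh3 of mouse 4 was low at 3.07 CPM. Myh4 of oldest-old AAV-Kl mouse 4 was high at 57813 CPM, and the other mice of the group measured 42606 to 45104 CPM. Myh8 of old GFP mouse 1 was low at 4.86 CPM, in the library with 1063 CPM of liver genes. Myh7b of old AAV-Kl mouse 1 was high at 10.4 CPM, and the log2 ratio of Myh2 to Myh1 of old AAV-Kl mouse 3 was high at -0.18.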

How the results depend on the processing

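Myh members called from young to oldest-old GFP mice went from 5 to 3 when only the compared groups were fitted (Myh4 and Myh1 lost) and to 1, Myh3, without young GFP mice 1 and 3, which leaves 2 young mice. Leaving out 1 library at a time gave 2 to 5 calls, with 3 without oldest-old GFP mouse 4 and 2 without young GFP mouse 3. From young to old GFP mice, 1 call became 3 when only the compared groups were fitted (Myh7 and Myh7b added) and 0 without young GFP mice 1 and 3. From old to oldest-old GFP mice 0 became 1 with DESeq2. The fit with a replicate block, which does not rest on a known pairing (mean correlation of same-numbered libraries -0.01 from young to oldest-old GFP mice), called 4 members from young to oldest-old GFP mice, since Myh4 had adjusted p = 0.0556, and left the count of each other comparison as it was. With young Sham mice in place of young GFP mice, a choice made after seeing the data, the Myh4 share of old GFP mice differed by 0.22 points and the log2 ratio of Myh1 to Myh4 of oldest-old GFP mice by 0.79 (exact permutation test, p = 0.0571). Of 936 shares and ratios recomputed, 927 stayed within the spread between mice or on their side of the threshold. This count is no test of robustness, because many of the values could not have failed. Leaving out 1 of 4 mice always moves a difference of means by less than that spread. Averaging over replicate numbers leaves it unchanged. Of 968 recomputed log2 fold changes, 83 changed sign and 0 of these were called. Counts of all genes called moved by more than 1.5 times in old against young GFP mice, from 612 to 1275 in the compared groups alone, 1111 with DESeq2, 192 without old GFP mice 1 and 4 and 81 without young GFP mice 1 and 3. In oldest-old against young GFP mice they moved from 2263 to 1249 in the compared groups alone and 623 without young GFP mice 1 and 3, and with 1 library left out they ranged from 271 to 532 and from 1365 to 2400. For young GFP against young Sham mice, 84 became 174 in the compared groups alone, 27 without young GFP mice 1 and 3, 288 with DESeq2 and 1 to 114 with 1 library left out. DESeq2 called 97 genes in place of 0 in oldest-old against old GFP mice and 16 in place of 2 for Klotho in the oldest-old. The causes were not tested. Tests of 3 mice against 4 or of 4 pairs cannot reach 0.05 (smallest exact p 0.0571 and 0.125), so those settings were read as values.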
